A study of Caenorhabditis elegans with 6 samples.

Results

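The pals genes of Caenorhabditis elegans are a family named for a protein signature of unknown biochemical activity. They were taken here as every gene of the deposited gene table whose name is pals followed by a number, which gave 38 of 46926 genes. RNA came from whole wild-type N2 animals that had been grown to the late L4 or young adult stage, kept in liquid buffer with heat-treated bacteria for 5 h with 25 µM chaetocin or with the solvent DMSO alone. Chaetocin is a fungal compound used as an inhibitor of lysine methyltransferases. Each group had 3 libraries. Both groups share the strain, the liquid incubation and the solvent, and no untreated animals on plates were part of the comparison.

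Several pals genes belong to the intracellular pathogen response, a set of transcripts that C. elegans raises when microsporidia or the Orsay virus infect its intestine, and also under proteasome blockade and prolonged heat stress. pals-5 is the member whose promoter is widely used as a reporter of that response. pals-22 is known to hold the response down and its neighbour pals-25 to switch it on, while pals-17 is a further negative regulator that acts against pals-20 and pals-16.

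Levels are FPKM, fragments relative to transcript length and library size, scaled between libraries. A gene was tested when it reached 0.5 FPKM in at least 3 libraries. Tests were made with limma on log2(FPKM + 0.1) over all 15213 genes that passed, with Benjamini-Hochberg adjusted p-values and a threshold of 0.05, and log2 fold changes are given ± standard error. Fold changes on this scale understate the change of low genes. Columns summed to between 1232966 and 1326067 FPKM, and 18747 to 18933 genes were above 0 in each library. The files hold no counts per library, so depth is unknown. The labels number the libraries of a group as biological replicates but do not say whether they came from separate cultures. A p-value here therefore measures only how these 6 libraries spread, which may not be a spread between cultures and may in part be technical. In whole animals, fewer cells of a type and less RNA per cell cannot be told apart.

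Of the 38 pals genes, 22 were tested. With chaetocin 13 of them rose and 0 fell, while 9 did not pass the test. Among all tested genes 5.53% were higher and 2.92% were lower, 8.45% in either direction. The increases ranged from 1.35-fold (pals-17) to 9.96-fold (pals-6). The median log2 fold change was 0.77 over the 22 tested members and 0.00 over all tested genes. A member that is low in DMSO can pass the filter only through its chaetocin libraries, so the count is also given without such genes: 19 members reached 0.5 FPKM in all DMSO libraries, and 12 of these rose. The chaetocin libraries lay above every DMSO library for 17 of the 22 tested members, against 14.5% of all tested genes. These 17 include pals-27 and pals-38, which did not reach 0.5 FPKM in all DMSO libraries. The median of 0.77 also includes members of that kind.

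The reporter gene pals-5 did not pass the test. Its level was 0.191, 0.0704 and 1.55 FPKM in the DMSO libraries, listed here and throughout by replicate number, and 0.557, 0.369 and 0.758 FPKM in the chaetocin libraries. The chaetocin values fell inside the DMSO range, and DMSO replicate 3 was the highest of the 6 libraries. Means were 0.603 ± 0.821 FPKM in DMSO and 0.561 ± 0.195 FPKM with chaetocin (SD, n = 3 each). The log2 fold change was 0.56 ± 0.82, with a 95% interval from -1.39 to 2.52 and an adjusted p of 0.763 (limma), so a change in either direction was not resolved. Its value was 1.52 without DMSO replicate 3 and -0.11 without DMSO replicate 2.

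Of the antagonistic pair, pals-22 was measured at 5.69, 5.11 and 4.24 FPKM with DMSO and at 5.26, 6.32 and 5.31 FPKM with chaetocin. For pals-25 the corresponding levels were 3.77, 4.13 and 4.45 FPKM with DMSO and 4.60, 3.84 and 4.39 FPKM with chaetocin. The groups overlapped for both genes. The log2 fold change of pals-22 was 0.17 ± 0.14 (95% interval -0.15 to 0.49, adjusted p = 0.555, limma). That of pals-25 was 0.05 ± 0.11 (95% interval -0.22 to 0.32, adjusted p = 0.844, limma), and it took the opposite sign without DMSO replicate 1 (-0.0159) or without chaetocin replicate 1 (-0.000793). Neither interval reached a doubling or a halving, which would be 1 unit on this scale.

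The balance within that pair was compared directly as the log2 ratio of pals-25 to pals-22 in each library. It was -0.58, -0.30 and 0.07 with DMSO and -0.19, -0.70 and -0.27 with chaetocin. The group means of -0.27 ± 0.33 and -0.39 ± 0.28 (SD, n = 3 each) differed by -0.12, with an exact permutation p of 0.7 (2-sided), where 3 against 3 libraries cannot give less than 0.1. That difference was 0.0523 without DMSO replicate 3 and 0.0404 without chaetocin replicate 2. The log2 ratio of pals-5 to pals-22 averaged -3.55 ± 1.89 with DMSO and -3.15 ± 0.57 with chaetocin (SD, n = 3 each), a difference of 0.39 with an exact permutation p of 0.8 (2-sided). It changed sign without DMSO replicate 2 (-0.30) and was 1.47 without DMSO replicate 3. Neither ratio separated the groups.

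The negative regulator pals-17 rose 1.35-fold. Its levels were 7.81, 6.56 and 6.42 FPKM with DMSO and 9.55, 8.76 and 9.82 FPKM with chaetocin, without overlap. The log2 fold change of 0.43 ± 0.10 had an adjusted p of 0.0433 (limma). Leaving out DMSO replicate 2 or 3 or any chaetocin replicate ended the call, with adjusted p from 0.0754 to 0.141, and so did using the FPKM without scaling (0.0525), a common prior variance (0.0581) or no filter (0.0631).

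pals-16, which promotes the response where pals-17 is lost, was at 3.96, 3.85 and 4.01 FPKM in the DMSO libraries and at 4.76, 5.20 and 5.34 FPKM in the chaetocin libraries. The groups did not overlap, and the log2 fold change of 0.36 ± 0.09 had an adjusted p of 0.0579 (limma), which missed the threshold. With a common prior variance it was 0.0214, and with the filter set on the mean level 0.0481. pals-20, the other gene of that kind, missed the filter, with 0.221, 0.281 and 0.312 FPKM in the DMSO libraries and 0.537, 0.624 and 0.279 FPKM in the chaetocin libraries. Its groups overlapped through chaetocin replicate 3, and with no filter its log2 fold change was 0.60 ± 0.31 (adjusted p = 0.410, limma).

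**Figure D1:**
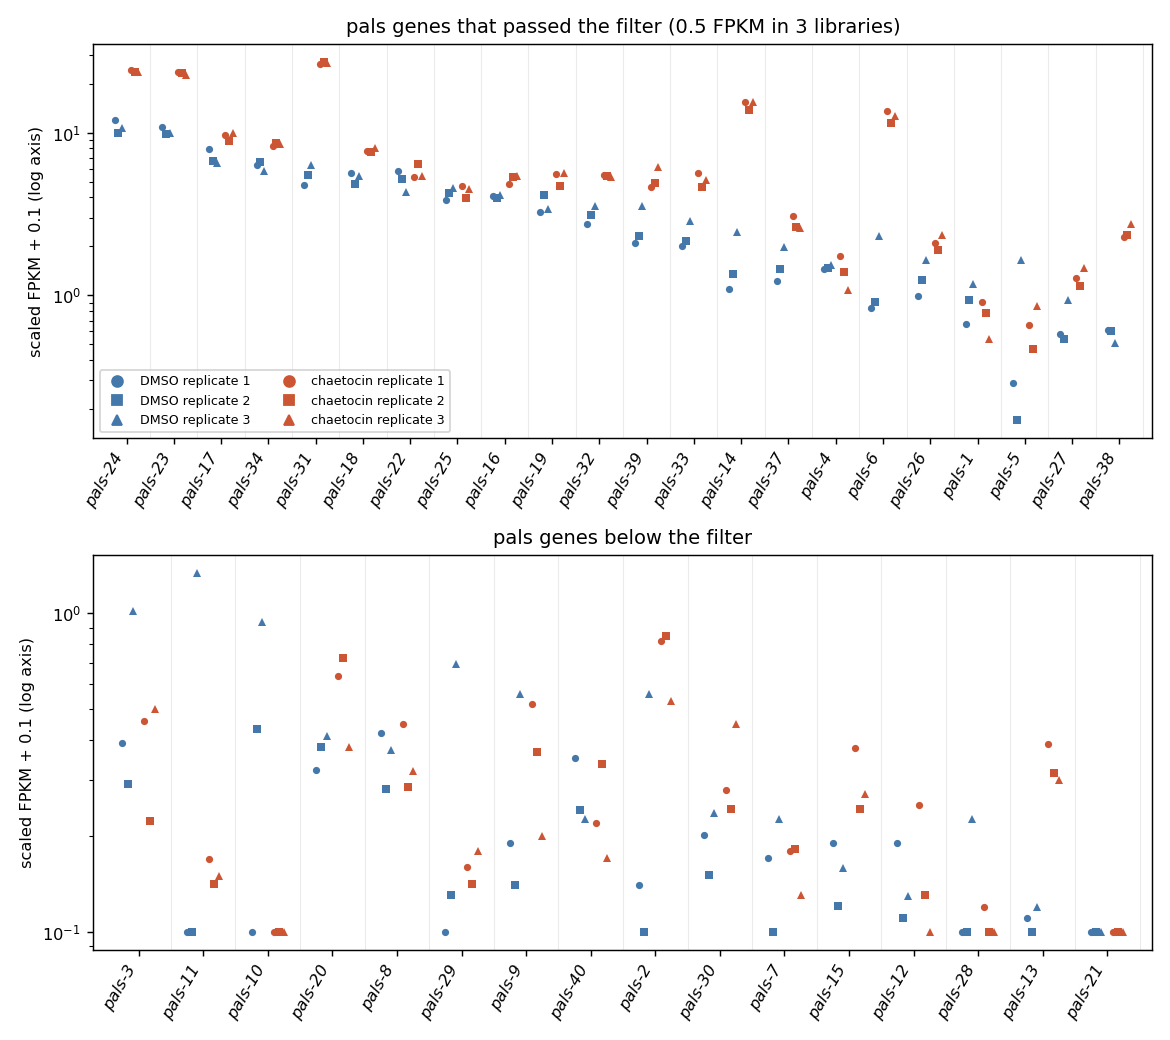
Level of each pals gene in the 6 libraries, as scaled FPKM + 0.1 on a log axis, with tested members above and the 16 members below the filter underneath; each point is 1 library. pals-6, pals-14, pals-31 and pals-38 show the widest gaps between DMSO (blue) and chaetocin (red), while the points of pals-5, pals-22 and pals-25 overlap.

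Outside the known regulators, the largest increases were those of pals-6 and pals-14, members listed among the transcripts induced by intracellular infection. pals-6 was at 0.734, 0.814 and 2.21 FPKM with DMSO and at 13.5, 11.4 and 12.5 FPKM with chaetocin. This is a 9.96-fold rise in the mean, from 1.25 ± 0.83 to 12.5 ± 1.02 FPKM (SD, n = 3 each), with a log2 fold change of 3.38 ± 0.38 (adjusted p = 0.00197, limma). The lowest chaetocin library was well above the highest DMSO library. pals-14 was at 0.995, 1.25 and 2.35 FPKM with DMSO and at 15.4, 13.6 and 15.3 FPKM with chaetocin, a 9.66-fold rise with a log2 fold change of 3.28 ± 0.28 (adjusted p = 0.000593, limma). By log2 fold change these genes stood at places 56 and 60 among the 842 genes that rose.

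pals-31 and pals-38 formed a second tier near 5-fold. pals-31 was at 4.64, 5.39 and 6.24 FPKM with DMSO and at 26.4, 27.1 and 26.9 FPKM with chaetocin. Its 4.94-fold rise had a log2 fold change of 2.29 ± 0.11 and the smallest adjusted p of the family, 3.58e-05 (limma). The chaetocin libraries of pals-31 agreed closely (SD 0.341 FPKM), and it became the most abundant pals transcript per length with chaetocin, from the fifth place with DMSO. pals-38 was lower throughout, at 0.513, 0.503 and 0.409 FPKM with DMSO and 2.18, 2.24 and 2.66 FPKM with chaetocin. Its 4.97-fold rise had a log2 fold change of 2.098 ± 0.18 (adjusted p = 0.000553, limma). It is the only member that rose without reaching the filter in every DMSO library.

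pals-23 and pals-24, the most abundant members with DMSO, slightly more than doubled. pals-23 was at 10.7, 9.72 and 9.87 FPKM with DMSO and at 23.6, 23.002 and 22.5 FPKM with chaetocin (2.28-fold). pals-24 was at 11.9, 9.78 and 10.6 FPKM with DMSO and at 24.3, 23.4 and 23.5 FPKM with chaetocin (2.21-fold). Their log2 fold changes were 1.18 ± 0.06 and 1.14 ± 0.08, with adjusted p of 4.85e-05 and 0.000184 (limma), and neither gene's groups came near to overlapping. Reads of pals-24 and of C29F9.12, which overlaps it on the opposite strand, cannot be told apart if counting ignored strand, and whether it did is not stated. C29F9.12 was listed at a mean of 0.164 FPKM with DMSO and 0.453 FPKM with chaetocin.

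pals-33, pals-39 and pals-32, all on chromosome V, rose between 1.76-fold and 2.25-fold. pals-33 was at 1.92, 2.07 and 2.76 FPKM with DMSO and at 5.58, 4.57 and 5.03 FPKM with chaetocin (log2 fold change 1.15 ± 0.16, adjusted p = 0.00582, limma). pals-39 was at 1.99, 2.22 and 3.43 FPKM with DMSO and at 4.51, 4.81 and 6.02 FPKM with chaetocin (1.01 ± 0.22, adjusted p = 0.0381, limma). pals-32 was at 2.64, 3.02 and 3.45 FPKM with DMSO and at 5.42, 5.31 and 5.26 FPKM with chaetocin (0.80 ± 0.12, adjusted p = 0.00705, limma). None of them overlapped between the groups, with DMSO replicate 3 the highest DMSO library each time. The call of pals-39 was lost without DMSO replicate 1 or 2 or any chaetocin replicate (adjusted p 0.0777 to 0.127), without scaling (0.0513), with a common prior variance (0.0664) and with no filter (0.0574). str-46, which overlaps pals-32 on the opposite strand, was listed at a mean of 0.111 FPKM with DMSO and 0.0332 FPKM with chaetocin.

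Increases of 1.37-fold to 1.48-fold, close to that of pals-17, were those of pals-34, pals-18 and pals-19. pals-19 was at 3.17, 4.04 and 3.31 FPKM with DMSO and at 5.44, 4.62 and 5.56 FPKM with chaetocin (1.48-fold, log2 fold change 0.56 ± 0.13, adjusted p = 0.0492, limma). pals-18 was at 5.58, 4.72 and 5.34 FPKM with DMSO and at 7.61, 7.48 and 7.99 FPKM with chaetocin (1.48-fold, 0.56 ± 0.09, adjusted p = 0.0106, limma). pals-34 was at 6.18, 6.49 and 5.70 FPKM with DMSO and at 8.13, 8.57 and 8.44 FPKM with chaetocin (1.37-fold, 0.45 ± 0.08, adjusted p = 0.0151, limma). In each the groups were separate but close. The annotated body of pals-19 ends at 1403460 and that of pals-18 starts at 1403408, on the same strand. Fragments from this short overlap were divided by estimation. The call of pals-19 was lost without DMSO replicate 1 or 3 or any chaetocin replicate (adjusted p 0.0645 to 0.156), without scaling (0.0631), with a common prior variance (0.0570) and with no filter (0.0759). That of pals-34 was lost without chaetocin replicate 2 or 3 or without DMSO replicate 1 (adjusted p 0.0544 to 0.0645).

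**Figure D2:**
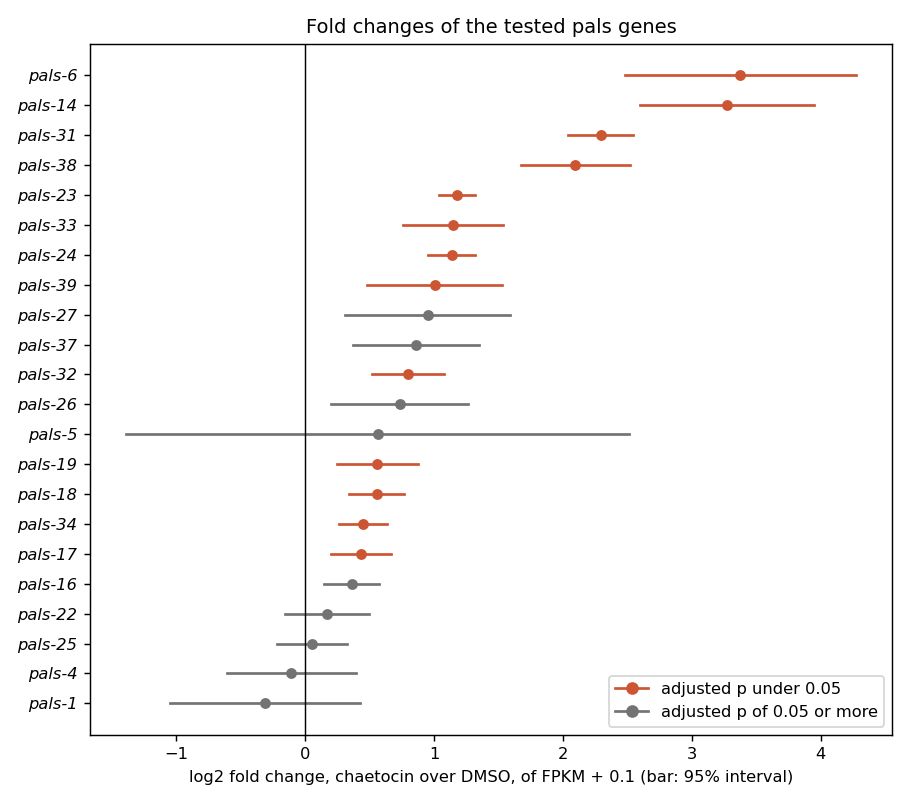
Log2 fold change of chaetocin over DMSO for the 22 tested pals genes on the FPKM + 0.1 scale (points) with 95% intervals (bars); red marks an adjusted p under 0.05. pals-6 and pals-14 stand above 3, and the interval of pals-5, from -1.39 to 2.52, is the widest.

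Besides pals-5, pals-16, pals-22 and pals-25, 5 tested members did not pass the test. In 3 of them every chaetocin library was above every DMSO library. pals-37 was at 1.45 ± 0.387 FPKM with DMSO and 2.67 ± 0.267 FPKM with chaetocin (log2 fold change 0.86 ± 0.20, adjusted p = 0.0511, limma). pals-27 was at 0.587 ± 0.217 and 1.20 ± 0.162 FPKM (0.95 ± 0.27, adjusted p = 0.0902, limma), and pals-26 at 1.20 ± 0.339 and 2.02 ± 0.222 FPKM (0.73 ± 0.22, adjusted p = 0.113, limma; SD, n = 3 each). All 3 passed the threshold without DMSO replicate 3, their highest DMSO library, with adjusted p of 0.0188, 0.0300 and 0.0456 (limma). pals-26 overlaps the pseudogene WBGene00045188 on the same strand, so their fragments were divided by estimation. The only tested members with a negative log2 fold change were pals-4 (-0.11 ± 0.21, adjusted p = 0.828, limma) and pals-1 (-0.31 ± 0.31, adjusted p = 0.643, limma), and both overlapped between the groups. Without chaetocin replicate 3 the value of pals-4 was 0.0738.

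The 16 members below the filter never exceeded 1.24 FPKM in a library, and 9 of them were listed at 0 in at least 1 library. pals-13, at 0.0101, 0 and 0.0195 FPKM with DMSO and 0.289, 0.215 and 0.200 FPKM with chaetocin, was separate between the groups, and with no filter its log2 fold change was 1.5995 ± 0.22 (adjusted p = 0.00894, limma). It overlaps C17H1.2 on the same strand, so the fragments of both were divided by estimation. C17H1.2 was at 0, 0 and 0.428 FPKM with DMSO and 0.478, 1.11 and 0.688 FPKM with chaetocin. pals-15 (0.0905, 0.0201 and 0.0584 against 0.279, 0.143 and 0.170 FPKM) and pals-30 (0.101, 0.0503 and 0.136 against 0.179, 0.143 and 0.349 FPKM) were separate as well. These are the 3 of the 16 members below the filter whose chaetocin libraries all exceeded the DMSO libraries, and no such member showed the reverse. Among all tested genes 14.5% were higher and 11.6% lower without overlap. The share among all genes below the filter was not computed, so no shift is read from this count. pals-2 was at 0.0402, 0 and 0.458 FPKM with DMSO and 0.717, 0.747 and 0.429 FPKM with chaetocin, overlapping through DMSO replicate 3 and chaetocin replicate 3. pals-21 was listed at 0 in all 6 libraries. The others, pals-3, pals-7, pals-8, pals-9, pals-10, pals-11, pals-12, pals-28, pals-29 and pals-40, overlapped between the groups too, and a listing at 0 does not show that a transcript was absent.

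DMSO replicate 3 stood out for the family, though not for the family alone. Of the 37 members above 0 in some DMSO library, it held the highest DMSO level for 25, against 10 for DMSO replicate 1 and 2 for DMSO replicate 2. Among the 22 tested members it did so for 14, where it did so for 37.7% of all tested genes. The difference was clearest in low members: pals-11 was at 0, 0 and 1.24 FPKM in the DMSO libraries and between 0.0409 and 0.0697 FPKM with chaetocin, and pals-29 was at 0, 0.0302 and 0.594 FPKM and between 0.0409 and 0.0798 FPKM. pals-10 was at 0, 0.332 and 0.837 FPKM with DMSO and listed at 0 in every chaetocin library. Without DMSO replicate 3, 14 members rose in place of 13, and without each of the other libraries in turn 9 to 11 did. Among the other response genes described further below, B0507.8 was at 1.87, 2.08 and 4.34 FPKM in the DMSO libraries. ddn-1, from the same list, was at 3.11, 3.22 and 7.08 FPKM. Neither passed the test (adjusted p = 0.0933 and 0.284, limma), but both did without DMSO replicate 3 (0.00373 and 0.00731). cul-6 and skr-5 were instead highest in DMSO replicate 2.

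Summed over the 38 members, the level was 78.4, 76.2 and 88.8 FPKM with DMSO and 179.0, 170.9 and 177.2 FPKM with chaetocin. The mean thus went from 81.1 ± 6.75 to 175.7 ± 4.26 FPKM (SD, n = 3 each), 2.17-fold. The 5 genes pals-6, pals-14, pals-31, pals-23 and pals-24, grouped after their values were seen, went from 29.1 to 100.8 FPKM and carried 75.9% of the increase. They made up 35.8% of the summed level with DMSO and 57.4% with chaetocin. The other 33 members together went from 52.1 to 74.9 FPKM. The 16 members below the filter came to 1.58, 1.28 and 5.71 FPKM with DMSO and 3.62, 2.88 and 2.37 FPKM with chaetocin, where DMSO replicate 3 was the highest.

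**Figure D3:**
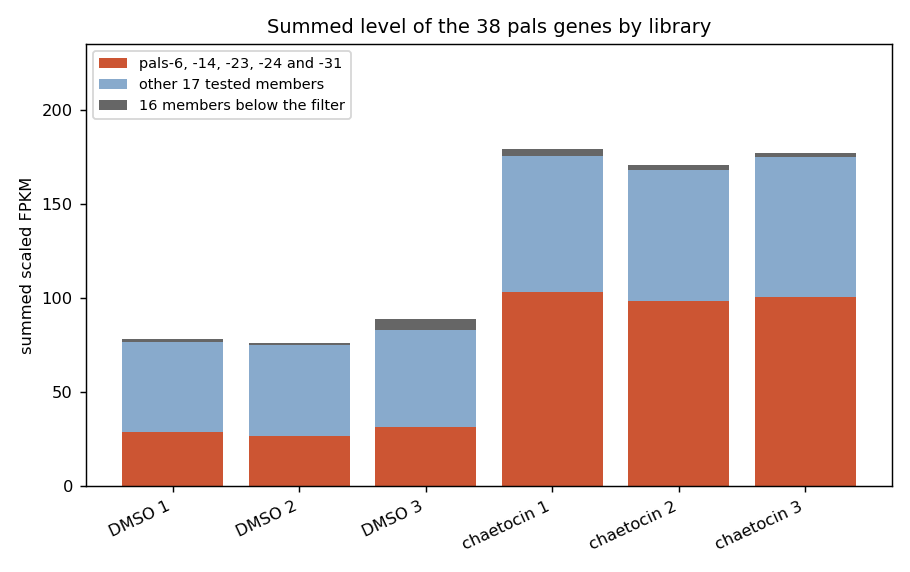
Summed scaled FPKM of the 38 pals genes in each library, as stacked bars that start at 0, split into 5 genes grouped after their values were seen (red), the other 17 tested members (blue) and the 16 members below the filter (grey). The DMSO bars lie between 76.2 and 88.8 FPKM and the chaetocin bars between 170.9 and 179.0 FPKM.

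The order of levels within the family changed accordingly. With DMSO, pals-24 and pals-23 were first and second, followed by pals-17, pals-34 and pals-31. Of these neighbours in the order, pals-24 and pals-23 overlapped between libraries, and so did pals-17 with pals-34 and pals-34 with pals-31. With chaetocin, pals-31 came first, then pals-24 and pals-23, whose libraries again overlapped, and pals-14 moved from place 14 to place 4. pals-25 went from place 8 to place 15 while its own level was 4.12 ± 0.34 FPKM with DMSO and 4.28 ± 0.392 FPKM with chaetocin (SD, n = 3 each).

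In the WBcel235 annotation the family lies in 6 groups of neighbours, joined where gaps were at most 25 kb, and 5 genes stand alone. The largest group, on chromosome I (13083321 to 13144623), holds 14 members, of which 4 were tested and 2 rose. These were pals-6 (13136390 to 13138544, minus strand) and pals-14 (13139122 to 13141898, plus strand), which lie side by side. pals-5 lies in the same group, at 13130813 to 13132466 on the minus strand. The log2 ratio of pals-6 to pals-5, given without a test, was 1.52, 2.42 and 0.49 with DMSO and 4.37, 4.62 and 3.88 with chaetocin. The group's summed level went from 4.28, 4.28 and 11.9 FPKM to 33.7, 28.6 and 31.2 FPKM. Of its 14 members 10 were below the filter.

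The regulator pair sits in a group of 4 on chromosome III (120435 to 137975), all on the plus strand, in the order pals-24, pals-23, pals-22, pals-25. pals-24 and pals-23 are 87 bp apart and pals-22 and pals-25 92 bp apart, with 4446 bp between pals-23 and pals-22. The first pair rose and the second did not pass the test. The log2 ratio of pals-23 to pals-22, given without a test, was 0.90, 0.92 and 1.20 with DMSO and 2.14, 1.85 and 2.06 with chaetocin. That of pals-24 to pals-25 was 1.63, 1.22 and 1.24 with DMSO and 2.38, 2.57 and 2.39 with chaetocin. In both ratios every chaetocin library was above every DMSO library. This restates the separate rise of pals-23 and pals-24 and is not further evidence. C29F9.2, which lies between pals-23 and pals-22 at 667 bp from the latter, was at 6.06, 4.17 and 5.70 FPKM with DMSO and 9.07, 9.20 and 10.1 FPKM with chaetocin (log2 fold change 0.84 ± 0.15, adjusted p = 0.0153, limma). Its call was lost without chaetocin replicate 2 or 3, with an adjusted p of up to 0.0622.

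A further group on chromosome III (1376945 to 1406263) holds 7 members including pals-17, pals-16 and pals-20. Of its 4 tested members 3 rose (pals-17, pals-18 and pals-19), all less than 1.5-fold, and the summed level went from 20.04 to 28.0 FPKM. The group of pals-26, pals-27 and pals-28 on the same chromosome (4375154 to 4387757) had 2 tested members, neither past the threshold. On chromosome IV, pals-29 and pals-30 (14539685 to 14551970) were both below the filter. On chromosome V all 7 members were tested and 6 rose: pals-39 and pals-38, which form a group with pals-37 (12437440 to 12446995), and the lone genes pals-31 (636581 to 637518), pals-32 (2896610 to 2898527), pals-33 (3673380 to 3676632) and pals-34 (7955404 to 7956497). The lone gene on chromosome I, pals-1 (11579856 to 11581989), did not pass the test. Over all tested genes 5.53% were higher, and shares for each chromosome were not computed. The calls of pals-17, pals-19, pals-34 and pals-39 were each lost in some of the fits described above.

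**Figure D4:**
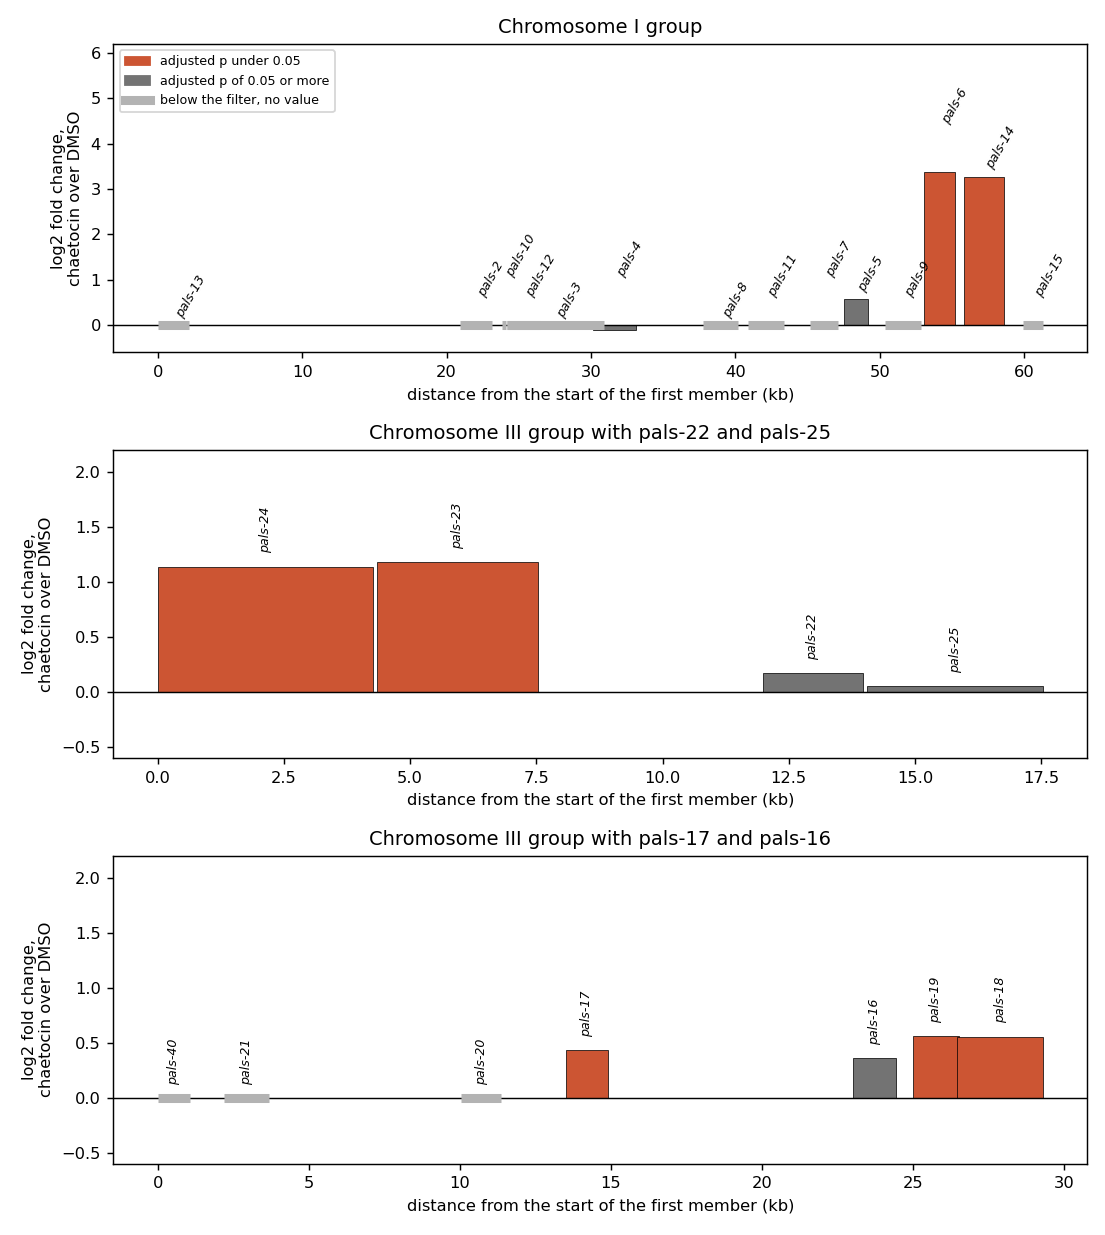
Log2 fold change (bar height) of pals genes along 3 chromosomal groups, with distance from the start of the first member in kb on the horizontal axis and bar width equal to the annotated gene; light grey strokes mark members below the filter. pals-6 and pals-14 stand side by side in the chromosome I group, and pals-24 and pals-23 rise above pals-22 and pals-25 in the middle panel.

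Among the non-member genes within 10 kb of a pals gene, 45 of 214 were tested, and 10 (22.2%) rose and 1 fell, against 5.53% higher and 2.92% lower among all tested genes. Of the 35 that reached 0.5 FPKM in all DMSO libraries, 5 rose and 1 fell. The pseudogene WBGene00045188, among those that rose (log2 fold change 0.70 ± 0.16, adjusted p = 0.0419, limma), overlaps pals-26 on the same strand. Its level is therefore not separate from that of a member. The 45 tested genes had a median log2 fold change of 0.02. Near pals-31 there were 3 genes that rose. F48G7.10, 1626 bp away, went from 12.2 to 49.8 FPKM (log2 fold change 2.02 ± 0.06, adjusted p = 6.55e-06, limma). F48G7.12, 6177 bp away, went from 0.255 to 11.5 FPKM (5.11 ± 0.30, adjusted p = 9.33e-05, limma), and F48G7.9 from 0.372 to 2.98 FPKM (adjusted p = 0.00981, limma), both below 0.5 FPKM in at least 1 DMSO library. These genes lie close together, so they are not separate locations. Y26D4A.21 near pals-2, named after its values were seen, was at 0.442, 0.141 and 0.0876 FPKM with DMSO and 1.66, 0.860 and 0.918 FPKM with chaetocin (2.05 ± 0.47, adjusted p = 0.0441, limma). The gene that fell was W08A12.2 near pals-33, from 51.3 to 41.8 FPKM (-0.30 ± 0.04, adjusted p = 0.00638, limma). Y39H10B.3 and Y39H10B.2 near pals-33 and C31B8.7 near pals-32 also rose, from 0.463 to 1.42, 20.9 to 28.6 and 0.911 to 1.77 FPKM, with log2 fold changes of 1.42, 0.46 and 0.89 (adjusted p = 0.0161, 0.0258 and 0.0165, limma). The count of neighbours that rose went down to 5, 6 and 9 without DMSO replicates 1, 2 and 3, and to 5, 4 and 4 without chaetocin replicates 1, 2 and 3. Y26D4A.21, Y39H10B.3, Y39H10B.2 and C31B8.7 were among the calls lost in some of these.

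Transcript values were tested for isoforms, over 21002 transcripts of which 3.13% were higher and 1.54% lower. The 38 members have 49 annotated transcripts in the table, of which 27 were tested and 13 rose. For pals-23 the main isoform C29F9.3a.1 rose (log2 fold change 1.227 ± 0.06, adjusted p = 0.000249, limma), and so did C29F9.3b.1 (0.78 ± 0.13, adjusted p = 0.0270, limma). The share of C29F9.3b.1 in the gene's level was 27.2, 26.5 and 28.2% with DMSO and 18.5, 20.5 and 24.3% with chaetocin. Both isoforms of pals-31 rose, F48G7.2a by 2.35 ± 0.43 (adjusted p = 0.0393, limma) and F48G7.2b.1 by 2.28 ± 0.12 (adjusted p = 0.000308, limma). In pals-19, Y82E9BR.23b.1 rose by 0.73 ± 0.14 (adjusted p = 0.0481, limma), whereas Y82E9BR.23a.1 was at 0.07 ± 0.26 (adjusted p = 0.931, limma) and turned sign without DMSO replicate 1 (-0.121). The share of Y82E9BR.23a.1 was 25.7, 34.9 and 33.5% with DMSO and 21.8, 23.3 and 21.4% with chaetocin. In pals-18, Y82E9BR.21.1 rose by 0.57 ± 0.11 (adjusted p = 0.0408, limma) and Y82E9BR.21.2 did not pass (0.31 ± 0.26, adjusted p = 0.636, limma). The calls of C29F9.3b.1, Y82E9BR.23b.1 and Y82E9BR.21.1 were lost without any 1 of the 6 libraries, with adjusted p up to 0.106, 0.166 and 0.140, and that of F48G7.2a without DMSO replicate 1 or any chaetocin replicate (up to 0.133). Isoforms of a gene share fragments that were divided by estimation, and the differences between isoforms were not tested.

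The authors' deposited table lists 30 of the pals genes, 17 of them higher with chaetocin at its p under 0.05 and 0 lower, against 5.57% higher and 3.49% lower of its 16062 genes. All 13 members that rose here are among the 17. The others are pals-13, pals-26, pals-27 and pals-37. In the authors' deposited table pals-13 had a log2 fold change of 4.44 with a standard error of 1.18 (p = 0.00293), pals-26 0.75 (p = 0.00609), pals-27 1.03 (p = 0.0137) and pals-37 0.89 (p = 0.000553). For pals-5, pals-22 and pals-25 the authors' deposited table gives -0.11, 0.16 and 0.05, with p of 0.978, 0.757 and 0.937.

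Other genes of the intracellular pathogen response, from a list of 30 non-members found in the table, were read from the same test. The list was written from general knowledge, with earlier results of these data known. Of 17 tested, 12 rose and 0 fell, against 5.53% higher and 2.92% lower among all tested genes, and their median log2 fold change was 1.19. fbxa-158, B0507.6, T08E11.1 and Y75B8A.39 among them reached 0.5 FPKM in no DMSO library or in some of them only. Of the 13 tested genes that reached it in all DMSO libraries, 8 rose and 0 fell. The median of 1.19 includes the genes that did not reach 0.5 FPKM in all DMSO libraries, and no median was computed without them. Components of the CUL-6 ubiquitin ligase, which acts in this response, were among those that rose: the Skp1-related genes skr-3 (51.3 to 81.1 FPKM, log2 fold change 0.66 ± 0.05, adjusted p = 0.000413, limma), skr-4 (61.5 to 99.7 FPKM, 0.70 ± 0.06, adjusted p = 0.000407, limma) and skr-5 (4.00 to 9.98 FPKM, 1.301 ± 0.09, adjusted p = 0.000227, limma), and the RING domain gene rcs-1 (6.44 to 16.3 FPKM, adjusted p = 0.000387, limma). The cullin gene cul-6 was at 1.40 ± 0.117 and 2.13 ± 0.338 FPKM (SD, n = 3 each) and did not pass (0.56 ± 0.17, adjusted p = 0.109, limma). Every chaetocin library of cul-6 was above every DMSO library.

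The F-box gene fbxa-182 rose from 2.94 to 8.90 FPKM (log2 fold change 1.56 ± 0.10, adjusted p = 0.000135, limma). eol-1, related to decapping enzymes, rose from 0.922 to 4.61 FPKM (2.31 ± 0.33, adjusted p = 0.00590, limma), T08E11.1 from 0.415 to 2.15 FPKM (2.21 ± 0.32, adjusted p = 0.00622, limma) and Y75B8A.39 from 0.0598 to 1.37 FPKM (3.18 ± 0.27, adjusted p = 0.000559, limma). These genes and the pals genes did not cover every marker of the response. chil-27, a chitinase-like gene used as a marker of oomycete and microsporidian infection, missed the filter, with 0.322, 0.161 and 0.117 FPKM in the DMSO libraries against 0.0597, 0.133 and 0.180 FPKM after chaetocin. F26F2.1, a strongly induced gene in infected animals, missed it as well, with 0.281, 0.281 and 0.389 FPKM in the DMSO libraries against 0.189, 0.174 and 0.120 FPKM with chaetocin, where every chaetocin library was the lower. F20E11.17, also below the filter, was at 0.271, 0.131 and 1.01 FPKM with DMSO and listed at 0 in every chaetocin library. The tested gene F26F2.5 had a log2 fold change of -0.79 ± 0.44 and did not pass (adjusted p = 0.388, limma).

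Of 7 regulators of the response outside the family, 1 rose and 0 fell, where 5.53% of all tested genes were higher and 2.92% lower, so the count is close to the background. pnp-1, a purine nucleoside phosphorylase that restrains the response, went from 110 ± 3.56 to 134 ± 0.952 FPKM (SD, n = 3 each; log2 fold change 0.28 ± 0.03, adjusted p = 0.00270, limma). The transcription factor gene zip-1, which many response genes need, was at 17.8 ± 2.66 and 23.9 ± 2.13 FPKM (0.44 ± 0.12, adjusted p = 0.0766, limma), and passed without DMSO replicate 2 (0.0245). Every chaetocin library of zip-1 was above every DMSO library. drh-1, which encodes the receptor for viral RNA, was at 23.01 and 23.9 FPKM (0.05 ± 0.06, adjusted p = 0.677, limma).

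**Figure D5:**
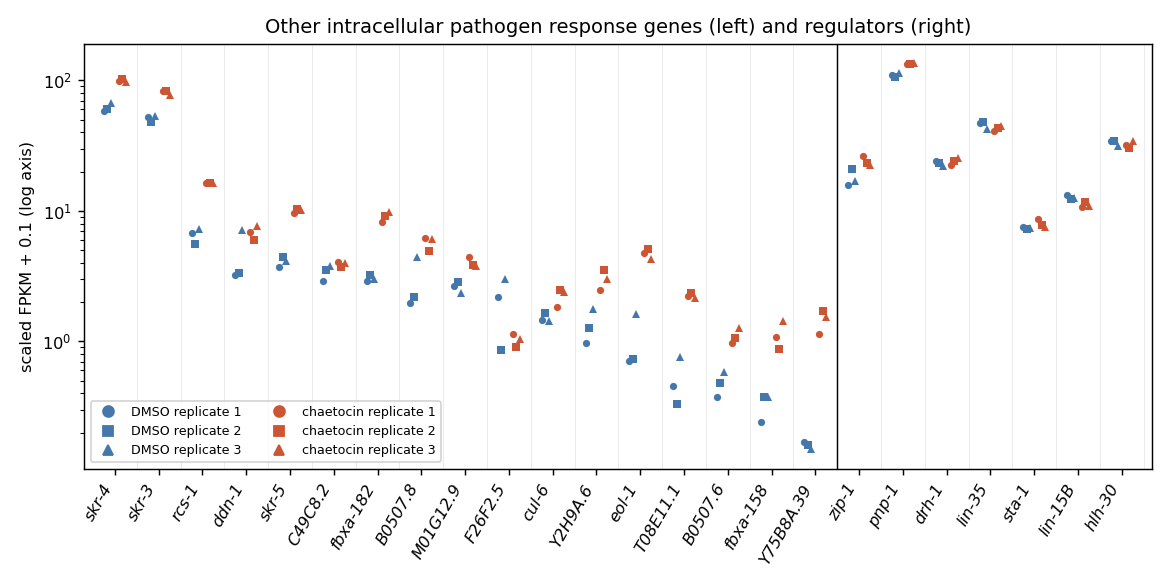
Level of the tested response genes outside the pals family (left of the line) and of regulators (right), as scaled FPKM + 0.1 on a log axis, with 1 point per library (DMSO blue, chaetocin red). skr-3, skr-4, skr-5, rcs-1 and fbxa-182 separate the groups, and drh-1 overlaps.

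The labelled tissue is the whole animal, and all 11 tissue markers, a list added after the files were seen, were detected. Of these 2 rose and 0 fell, beside 5.53% higher and 2.92% lower among all tested genes, and the median log2 fold change was -0.09. Both are intestinal: ges-1, a gut esterase, went from 38.4 to 46.8 FPKM (0.28, adjusted p = 0.00544, limma) and ifb-2, an intermediate filament gene, from 116 to 148 FPKM (0.34, adjusted p = 0.000899, limma). The intestinal genes elt-2, at 11.1 and 10.4 FPKM (-0.09, adjusted p = 0.429, limma), and vha-6, at 74.0 and 67.5 FPKM (-0.13, adjusted p = 0.298, limma), did not pass. The part of these levels in the values of the pals genes was not tested.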

How the data were processed

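The authors deposited FPKM per gene and per transcript, 1 column per library. Per the submitters' processing notes, reads were trimmed with Trimmomatic 0.36 and the notes list STAR 2.7.9a, RSEM 1.3.1 and WBcel235. RSEM divides shared fragments by estimation, so near-identical and overlapping genes are uncertain. The authors' comparison table holds, per the file headers, a log2 fold change (DMSO over chaetocin, sign turned here), its standard error (entered as a score), a p-value and a mean normalized count (entered as a signal). Which software made it is not stated in these sources. These deposited p-values were taken to be adjusted, since Benjamini-Hochberg adjustment of fold change over standard error gave a median ratio of 0.990 to them.

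FPKM were scaled by a trimmed mean of log ratios (30% of ratios, 5% of means trimmed) over genes with at least 0.5 FPKM in at least 3 of the 6 libraries. limma 3.58.1 in R 4.3.3 fitted log2(scaled FPKM + 0.1) on the group, with variance moderation along the mean, 2-sided, and the fitting code was tested on simulated data. No counting interval can be given, because depth is unknown. Positions came from the Ensembl annotation of WBcel235, in which all 46926 identifiers were found.

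Members and gene lists were chosen with earlier results of these data known, and 7 listed response genes that are pals genes under other names were left out of that list. Values in each library are given for the known regulators in the family and every called member. From the other lists and the neighbours, up to 8 called genes each with the smallest adjusted p plus 10 fixed genes are named, mostly by group means. Alternatives, 15 in all, were other pseudocounts, filters, scalings and variance priors, a replicate block and leaving out each library.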

Additional observations from a re-analysis of the deposited data

How the results depend on the processing

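Of the 13 pals genes that rose, 9 were called under all 15 alternatives (pals-6, pals-14, pals-18, pals-23, pals-24, pals-31, pals-32, pals-33 and pals-38), and pals-17, pals-19, pals-34 and pals-39 were lost under at least 1. The count of pals genes that rose ran from 9 to 14 with 1 library left out and from 10 to 14 under the other settings. Over all genes, leaving out 1 library gave 605 to 846 higher and 274 to 510 lower genes, the 274 without DMSO replicate 2. For libraries of equal replicate number, the correlations of their deviations from the group means were 0.106, 0.0668 and -0.0265. For unequal numbers they ran from -0.150 to 0.0780. With so few libraries these values cannot settle whether libraries were paired. The replicate numbers also differ from the numbers in some of the deposited column names. With the replicate number as a block, 582 genes were higher and 255 lower, and 10 pals genes rose; pals-17, pals-19 and pals-34 had adjusted p of 0.0925, 0.159 and 0.0672 (limma). Neighbours that rose numbered 4 to 9 with 1 library left out, and those that fell 1 to 2, with 2 also under a common prior variance. Other response genes that rose numbered 8 to 13 and those that fell 0 to 1, the 1 being F26F2.5 without DMSO replicate 2; regulators that rose numbered 1 to 2. The difference in the log2 ratio of pals-25 to pals-22 ran from -0.27 to 0.0523 with 1 library left out, taking the opposite sign at 0.0523 and 0.0404. That of pals-5 to pals-22 ran from -0.30 to 1.47 and was -0.0762 with a pseudocount of 1, where the reported value was 0.39. Single log2 fold changes took the opposite sign in some fits with 1 library left out for pals-5 (range -0.11 to 1.52), pals-25 (-0.0159 to 0.119, with -0.000793 as the other negative value), pals-4 (-0.277 to 0.0738) and transcript Y82E9BR.23a.1 (-0.121 to 0.239). pals-5 was not tested with a filter of 1 FPKM in 3 libraries. The cause of these differences was not tested. Since depth is unknown, members below the filter cannot be called absent or unchanged.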
